A study of Mus musculus with 6 samples.

Results

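The genes described here are 10 antiviral effectors that interferon induces: Mx1, Mx2, Rsad2, Cmpk2, Bst2, Ifitm1, Ifitm2, Ifitm3, Xaf1 and Ifi44. They were taken by symbol from the count tables of ligated mouse veins, and all 10 were found among the 16533 genes listed. The tissue was the inferior vena cava with the thrombus inside it, collected 24 h after ligation, a model of deep vein thrombosis. By the genotype labels, control mice were Stingf/f, in which loxP sites flank Sting1. The mKO mice, Stingf/f Lyzm-Cre+/-, carry the same floxed gene and 1 copy of Cre recombinase at the Lyz2 locus. Sample titles call the control mice WT and the mKO mice Sting. Lyzm-Cre is active in neutrophils, monocytes and macrophages, so vessel wall cells and lymphocytes of mKO mice should keep Sting1. The study asked how this deletion alters gene expression in the ligated vein. Each library was a pool of 3 thrombi, with 3 pools per genotype, and p-values measure the spread between pools. No Cre-positive group with an intact Sting1 gene was analysed here, so an effect of Cre and one of the deletion cannot be told apart.

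STING relays the signal of cGAS, which senses DNA in the cytosol. Once active, it recruits the kinase TBK1, which phosphorylates IRF3 and so starts transcription of type I interferon. Interferon binds the receptor made of IFNAR1 and IFNAR2, and the kinases JAK1 and TYK2 then set off assembly of the transcription factor complex ISGF3, which contains IRF9. ISGF3 binds the interferon-stimulated response element (ISRE) in promoters of antiviral genes. The genes here act at different steps of a virus life cycle. IFITM proteins hinder fusion of virions in endosomes, MX proteins are dynamin-like GTPases that trap incoming viral components, viperin (Rsad2) makes a chain terminator for viral polymerases from CTP, and tetherin (Bst2) holds budding virions at the cell surface.

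Promoter sequences are shown because most of these genes are known to be driven through an ISRE. RefSeq promoters of build GRCm38.p6, running from 250 bases before to 50 bases after a gene's start, were found for 8 of the 10 genes; Mx1 and Mx2 had no entry. The ISRE was searched as GAAA, any 2 bases and again GAAA, and its inner part as the IRF core AANNGAAA, on both strands; every ISRE match holds an IRF core match. Of 32851 promoters of this length, 3.44% held the ISRE letters and 23.9% the IRF core. The ISRE letters were found for Rsad2, Bst2, Ifitm2 and Ifitm3. Ifi44 and Xaf1 held the IRF core without the full ISRE, and Cmpk2 and Ifitm1 held neither in this window. In the sequences below, capitals mark ISRE and IRF core matches on either strand. For Rsad2 and Bst2 they are the 250 bases before the start, which hold the matches of both genes.
Rsad2 (chr12:26456453-26456702, minus strand): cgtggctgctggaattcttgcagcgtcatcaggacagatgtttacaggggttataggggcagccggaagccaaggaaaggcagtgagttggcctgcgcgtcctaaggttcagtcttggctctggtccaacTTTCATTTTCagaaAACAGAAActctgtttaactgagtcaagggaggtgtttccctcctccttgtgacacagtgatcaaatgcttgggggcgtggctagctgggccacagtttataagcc
Bst2 (chr8:71537473-71537722, minus strand): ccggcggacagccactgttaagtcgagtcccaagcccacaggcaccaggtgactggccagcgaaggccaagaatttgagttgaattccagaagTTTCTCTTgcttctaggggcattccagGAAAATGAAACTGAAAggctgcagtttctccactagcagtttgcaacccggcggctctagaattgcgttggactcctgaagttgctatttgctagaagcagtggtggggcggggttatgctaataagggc

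For the other 4 genes with a match, 30 bases around it are shown, so that the Ifitm2 and Ifitm3 sites can be set side by side and IRF cores of Ifi44 and Xaf1 can be read. A further IRF core of each gene, TTTCTCTT for Ifi44 and AAACGAAA for Xaf1, lies outside the bases shown. Both ISRE matches of Ifitm3 lie just after its start, at 3 to 12 and 20 to 29 bases counted from the first transcribed base, and the Ifitm2 match ends 37 bases before its start. The first match has the same letters in both genes, GAAAAGGAAA.
Ifitm3 (chr7:141010716-141010745, minus strand): cagGAAAAGGAAActtctgaGAAACCGAAA
Ifitm2 (chr7:140955988-140956017, minus strand): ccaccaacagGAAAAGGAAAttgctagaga
Ifi44 (chr3:151749939-151749968, minus strand): gagTTTCAGTTTTCGTTTcccgagcaggat
Xaf1 (chr11:72301609-72301638, plus strand): cacTTTCAGTTttgttttcctgtgtgcaaa

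Libraries held 158579864 to 180068483 counts, and the 10 genes had between 232 counts (Mx2 in mKO library 2) and 156764 counts (Ifitm1 in mKO library 1). Values below are CPM, which divides a gene's count by its library's size after TMM adjustment. The targeted gene Sting1 had 25.1, 31.4 and 27.1 CPM in control and 22.7, 21.4 and 28.7 CPM in mKO, so its groups overlapped. Lyz2, the gene of lysozyme M, 1 copy of which carries Cre in mKO, had 1430, 1759 and 1885 CPM in control and 643, 1149 and 1153 CPM in mKO, without overlap. Libraries also differed in tissue makeup. Summed skeletal muscle markers (5 of 5 measured) were 2.96 to 45.1 CPM in control and 3.61 to 164.6 CPM in mKO, highest in library 3 of each group. Summed sympathetic neuron markers (5 of 5) were 127.7 to 366.0 CPM in control and 6.92 to 241.0 CPM in mKO, with mKO library 3 at the lowest value.

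Of the 10 antiviral genes, 8 had a log2 fold change (mKO over control) below 0, against 54.1% of all tested genes, and Ifitm1 and Ifitm2 had one above 0. By edgeR's quasi-likelihood test none passed an adjusted p of 0.05, and neither did any of the 16523 genes tested (0%), although 1960 genes (11.9%) had an unadjusted p under 0.05. In 6 of the 10, Mx1, Mx2, Cmpk2, Ifitm3, Xaf1 and Ifi44, all 3 mKO libraries lay below all 3 control libraries, against 9.39% of all tested genes. With library totals alone as the scale, Mx1 and Ifitm3 overlapped, and 4 of the 10 remained separate, against 10.3% of all tested genes. At an unadjusted p under 0.05, 5 of the 10 were lower, against 6.26% of all tested genes. The median log2 fold change of the 10 was -0.58, beside -0.03 over all tested genes. By DESeq2, Xaf1 alone among the 10 passed as lower in mKO, against 1.33% of all tested genes. These genes were chosen with earlier results of these data known, so the counts describe them and test nothing. In whole tissue, fewer cells of a type and less RNA per cell cannot be told apart.

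**Figure D1:**
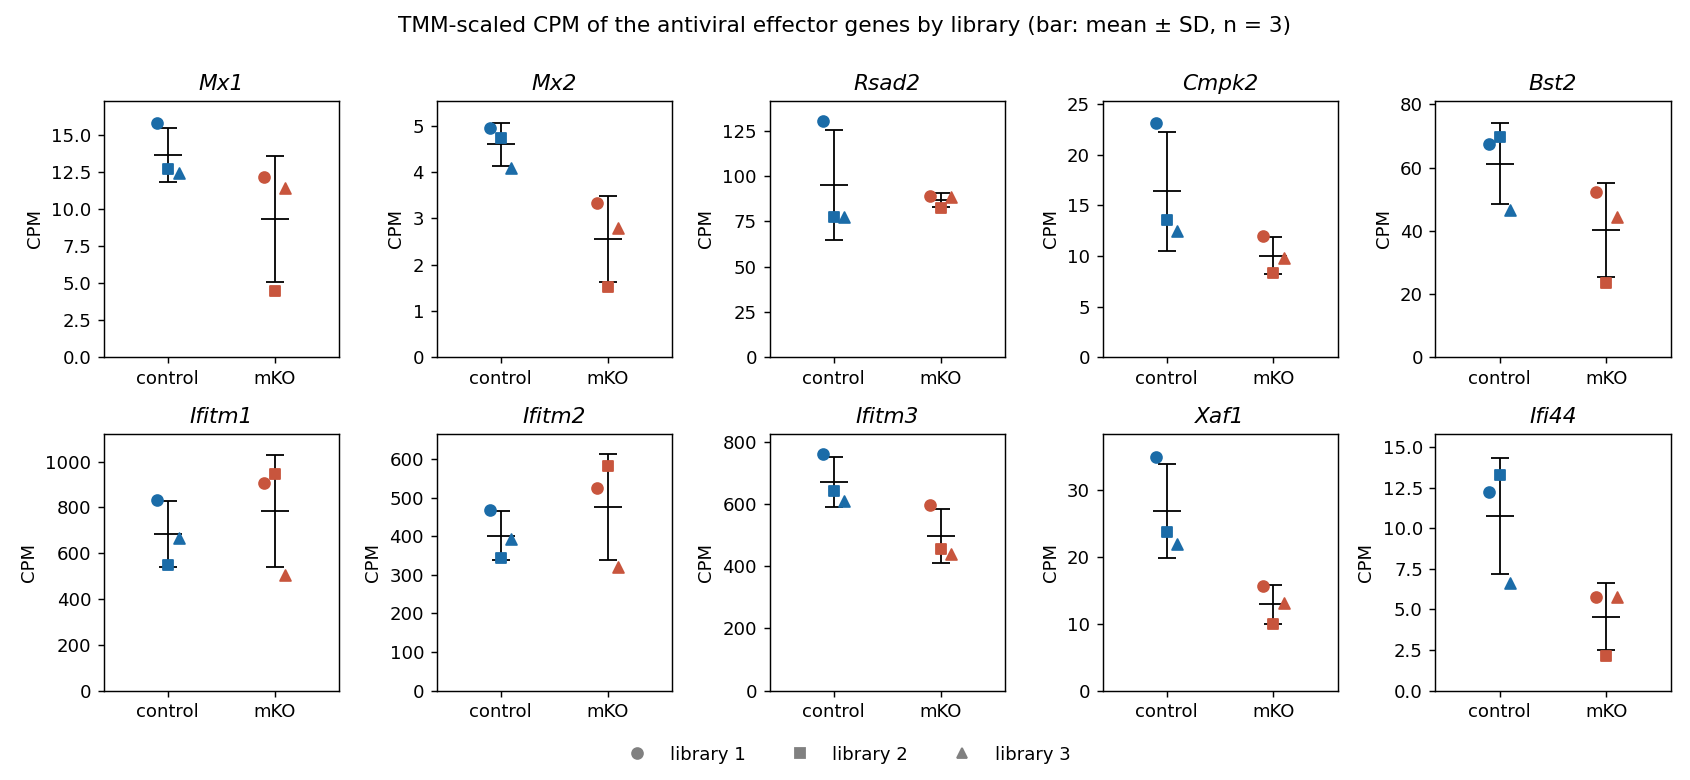
TMM-scaled CPM (y axis, from 0, scaled per panel) of each gene in the control and mKO libraries. Symbols give the library number, for which the labels name no pairing of the groups, and bars give the mean ± SD (n = 3). Xaf1 and Mx2 show a clear gap between groups, whereas in Ifitm1 and Ifitm2 mKO libraries 1 and 2 lie above every control library and mKO library 3 below.

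Xaf1 and Ifi44 had the lowest mKO-to-control ratios. Xaf1 encodes a zinc finger protein that binds the caspase inhibitor XIAP and promotes apoptosis. It had 34.9, 23.7 and 21.9 CPM in control and 15.6, 9.90 and 13.1 CPM in mKO. The groups did not overlap, and the lowest control library was 1.40 times the highest mKO library. The log2 fold change was -1.06 (SE 0.23), with a 95% interval of -1.60 to -0.52. The edgeR quasi-likelihood test gave an adjusted p of 0.225 and DESeq2 one of 0.00313. A two-sided exact permutation test gave 0.1, which no comparison of 3 with 3 libraries can undercut. Ifi44, a cytoplasmic interferon-induced protein, had 12.2, 13.3 and 6.65 CPM in control and 5.78, 2.16 and 5.75 CPM in mKO. Its groups did not overlap, though control library 3 stood closer to mKO libraries 1 and 3 than to the other control libraries. Ifi44 spanned a 6.16-fold range over the 6 libraries and had a log2 fold change of -1.23 (SE 0.44), with adjusted p 0.371 by edgeR and 0.0617 by DESeq2. XIAP itself, the partner of Xaf1, had a log2 fold change of 0.06 (SE 0.12).

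Mx1 and Mx2 are interferon-induced GTPases, the mouse MX1 protein acting in the nucleus and MX2 in the cytoplasm. Most laboratory strains carry inactivating mutations in these genes, and RefSeq lists both as transcribed pseudogenes in the C57BL/6J reference. GENCODE M21 lists Mx1 as protein coding and Mx2 as a polymorphic pseudogene. The labels do not name the strain of these mice. Mx1 had 15.8, 12.7 and 12.5 CPM in control and 12.2, 4.46 and 11.4 CPM in mKO. The groups did not overlap, but mKO library 1 was just under the lowest control library, which was 1.03 times as high, and mKO library 2 set most of the difference. Mx1 had a log2 fold change of -0.55 (SE 0.37; adjusted p 0.564 by edgeR). Without mKO library 2 it was -0.21. Mx2 had 4.96, 4.74 and 4.08 CPM in control and 3.33, 1.52 and 2.80 CPM in mKO. Its gap was wider, with the lowest control library 1.23 times the highest mKO library, and the log2 fold change was -0.85 (SE 0.28; adjusted p 0.335 by edgeR). Without mKO library 2 it was -0.58.

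Rsad2 and Cmpk2 are neighbours on chromosome 12 and are transcribed away from each other. CMPK2 is a mitochondrial kinase of pyrimidine monophosphates. Rsad2 had 130.3, 77.3 and 77.6 CPM in control and 89.1, 82.5 and 88.6 CPM in mKO. Control library 1 was the highest of all 6, and control libraries 2 and 3 were below every mKO library. Its log2 fold change was -0.13 (SE 0.21; adjusted p 0.801 by edgeR), with a 95% interval of -0.63 to 0.37, and it turned to 0.16 without control library 1. Cmpk2 had 23.2, 13.6 and 12.5 CPM in control and 12.0, 8.29 and 9.85 CPM in mKO. Its groups did not overlap, with the lowest control library 1.04 times the highest mKO library, and control library 1 stood far above the other 2. The log2 fold change was -0.71 (SE 0.26; adjusted p 0.371 by edgeR). It was -0.38 without control library 1.

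Bst2 (chromosome 8), whose tetherin protein is also a surface marker of plasmacytoid dendritic cells, had 67.6, 69.7 and 46.4 CPM in control and 52.4, 23.6 and 44.5 CPM in mKO. The groups overlapped, because control library 3 lay below mKO library 1. Its log2 fold change was -0.61 (SE 0.31; adjusted p 0.479 by edgeR), and a two-sided exact permutation test gave 0.2. It was -0.34 without mKO library 2, the lowest library for this gene. Of 9 plasmacytoid dendritic cell markers, 8 were measured, with summed levels of 105.4 to 110.5 CPM in control and 111.9 to 143.4 CPM in mKO. The defining marker Siglech had 0.523 to 0.889 CPM in control and 0.569 to 0.837 CPM in mKO. The markers' median log2 fold change was 0.02. In mKO library 2, the lowest for Bst2, the sum was 118.8 CPM and Siglech was at 0.569 CPM, its lowest mKO value. The part of these cells in the Bst2 values was not tested.

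Ifitm1, Ifitm2 and Ifitm3 lie side by side on chromosome 7. Ifitm3, the member best known for blocking influenza virus entry, had 760.2, 640.0 and 608 CPM in control and 596, 456 and 438 CPM in mKO. The groups did not overlap, with the lowest control library 1.02 times the highest mKO library. Its log2 fold change was -0.43 (SE 0.18; adjusted p 0.408 by edgeR). Ifitm1 had 834, 547 and 666 CPM in control and 906, 947 and 503 CPM in mKO, a log2 fold change of 0.20 (SE 0.28; adjusted p 0.762 by edgeR). Ifitm2 had 468, 343 and 393 CPM in control and 525, 580.5 and 321 CPM in mKO, a log2 fold change of 0.25 (SE 0.24; adjusted p 0.675 by edgeR). For Ifitm1 and Ifitm2 the libraries fell in one order: mKO library 2 was highest, then mKO library 1, then control libraries 1, 3 and 2, and mKO library 3 was lowest. Their 95% intervals, -0.44 to 0.84 and -0.32 to 0.81, include changes in either direction. Ifitm1 was 0.08 or 0.05 on dropping mKO library 1 or 2 and was 0.44 on dropping mKO library 3. It was 0.37 or 0.07 on dropping control library 1 or 2. Ifitm2 was 0.08 or 0.46 on dropping mKO library 2 or 3, and 0.37 or 0.14 on dropping control library 1 or 2.

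Ifitm1 and Ifitm2 are abundant in neutrophils, and summed neutrophil markers (8 of 8 measured, none at 0) took a similar course. They had 15805, 9639.8 and 12761 CPM in control and 16245, 19077 and 13712 CPM in mKO. The 3 highest libraries, mKO libraries 2 and 1 and control library 1, were also the 3 highest for Ifitm1 and Ifitm2, in the same order. In that sum, mKO library 3, lowest for both genes, was the fourth. The order changed when the 8 markers were weighed equally, as mean log2 CPM after centring each gene. On that scale mKO library 2 had 0.39, control library 1 0.27 and mKO library 1 0.25, and control library 3 (-0.07) lay above mKO library 3 (-0.20). Ifitm6, a relative known from myeloid cells, had 122.4, 57.6 and 90.4 CPM in control and 117, 74.6 and 33.0 CPM in mKO, and was lowest in mKO library 3 as well. The part of neutrophil content in the Ifitm values was not tested.

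**Figure D2:**
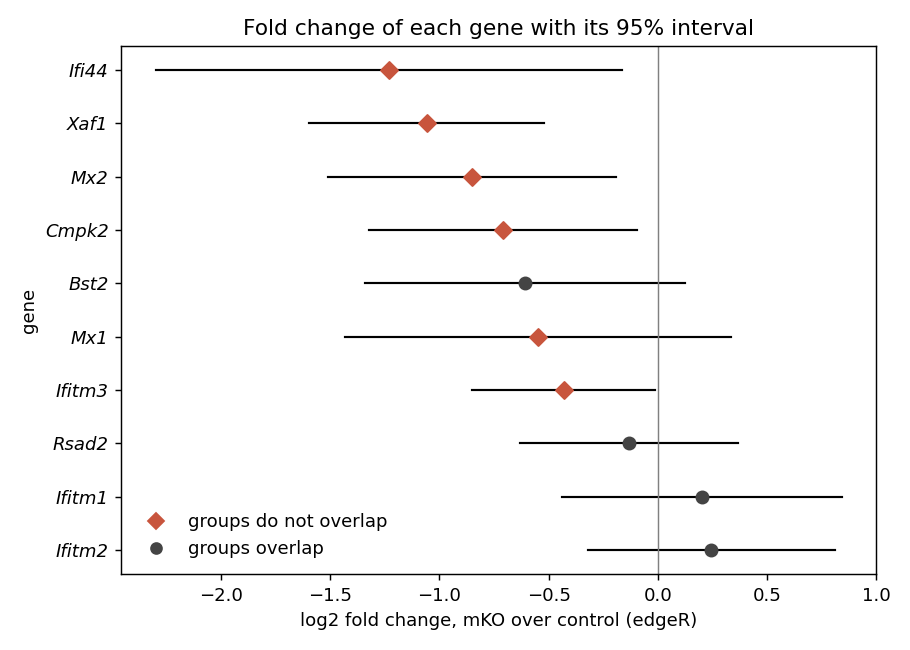
Log2 fold change of each gene (x axis, mKO over control, edgeR) with its 95% interval; diamonds mark genes whose groups do not overlap and circles those whose groups overlap. The intervals of Ifi44, Xaf1, Mx2, Cmpk2 and Ifitm3 lie below 0, and those of the other 5 genes include 0; no gene passed after adjustment over all genes.

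Ratios of counts within a library do not depend on library scaling, and 5 of them were compared for genes that are neighbours or belong to 1 family. The Ifitm3 to Ifitm1 ratio was 0.911, 1.17 and 0.914 in control and 0.658, 0.481 and 0.869 in mKO, so the groups did not overlap. The Ifitm3 to Ifitm2 ratio was also separate, at 1.68 ± 0.166 in control and 1.09 ± 0.291 in mKO (SD, n = 3 each). By contrast, the Ifitm1 to Ifitm2 ratio was 1.69 ± 0.0940 in control and 1.64 ± 0.0791 in mKO (SD, n = 3 each), with overlapping groups. The Rsad2 to Cmpk2 ratio ran from 5.62 to 6.22 in control and from 7.44 to 9.95 in mKO. It was thus higher in every mKO library than in any control library, although both genes share a locus. The Mx1 to Mx2 ratio was 2.98 ± 0.261 in control and 3.56 ± 0.582 in mKO (SD, n = 3 each), and its groups overlapped. Exact two-sided permutation p-values were 0.1 for the 3 ratios with separate groups (0.167 adjusted over the 5), 0.6 for Ifitm1 to Ifitm2 and 0.3 for Mx1 to Mx2. None passes 0.05, which 3 against 3 cannot reach. The 2 ratios of Ifitm3 share that gene, and Ifitm1 and Ifitm2 had a Pearson's r of 0.988 over the 6 libraries. Those 2 ratios are therefore not independent. The share of separate groups among ratios of other gene pairs was not computed.

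**Figure D3:**
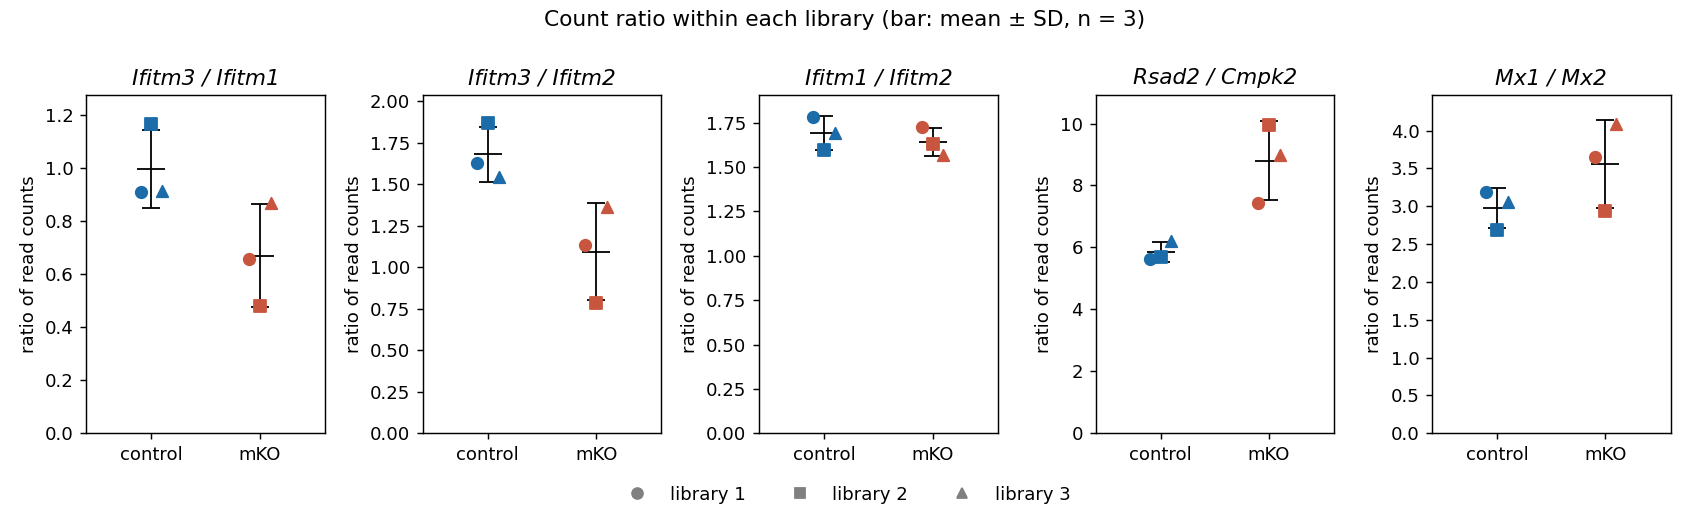
Ratio of read counts of neighbouring or related genes within each library (y axis, from 0, scaled per panel), with mean ± SD (n = 3). Ifitm3 to Ifitm1 and Ifitm3 to Ifitm2 are lower in every mKO library than in any control library, Rsad2 to Cmpk2 is higher, and the other 2 ratios overlap.

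Similar sequence limits how well family members can be counted apart. In the GENCODE M21 transcripts, 55.5% of the 31-base words of Ifitm2, 20.5% of those of Ifitm3 and 11.6% of those of Ifitm1 also occur in another gene. For Mx1 and Mx2 the shares were 8.67% and 7.96%. At 150 bases, the read length in the labels' protocol, 23.5% of the Ifitm2 words were shared, all with the overlapping transcript Gm45717, and 0% of those of the other 9 genes. The sources used here do not say how reads matching several genes were counted, so Ifitm2 is the least certain of these counts.

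Levels of different genes were compared as CPM per kb of exon (GENCODE M21 exon lengths). In control, Ifitm3 was highest at 988 CPM per kb (range 897 to 1121), followed by Ifitm1 at 624 and Ifitm2 at 613, whose ranges overlapped each other and not that of Ifitm3. In mKO the 3 Ifitm genes had overlapping ranges, with means of 732, 726 and 718 CPM per kb for Ifitm3, Ifitm2 and Ifitm1. Bst2 followed at 67.8 CPM per kb in control and 44.5 CPM per kb in mKO, then Rsad2 at 21.9 and 20.0 CPM per kb. Xaf1, Cmpk2 and Mx1 had 5.72, 3.94 and 3.61 CPM per kb in control, with ranges that overlapped from each to the next. Ifi44 and Mx2 were lowest, at 1.75 and 1.27 CPM per kb in control and 0.744 and 0.705 CPM per kb in mKO, and did not differ beyond their spread in either group.

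Several of these genes ranked the libraries alike, within the groups as well as between them. Mx1, Mx2, Cmpk2 and Xaf1 ranked the 6 libraries in one order, from control libraries 1, 2 and 3 down to mKO libraries 1, 3 and 2. Control library 1 was the highest for 6 of the 10 genes and mKO library 2 the lowest for 6. The mean of the 10 genes' centred log2 CPM was 0.57, 0.21 and 0.04 in control libraries 1 to 3 and 0.05, -0.61 and -0.26 in mKO libraries 1 to 3. Ifitm1 and Ifitm2 ran against the rest, with Pearson's r of -0.17 and -0.29 with the mean of the other genes. Their centred values were 0.35 and 0.29 in mKO library 1 and -0.10 and -0.12 in control library 3. On the mean of all 10 genes, control library 3 and mKO library 1 were nearly level, and the groups overlapped. The genes most like this mean, by Pearson's r of log2 CPM over the 6 libraries among 16513 other genes, were Ifi211 (0.997), of the PYHIN family of DNA sensors, Adtrp (0.988), Il11ra2 (0.985), Cyp4b1 (0.984) and Cpt2 (0.984). With 6 libraries and so many genes these values are a description only. Taken alone, Mx1 was most like Foxf1, Dctd and Tsku (0.997 to 0.988), Bst2 like Sntg2, Phf11d and Ms4a4c (0.998 to 0.996), and Ifitm3 like Tbc1d22b, Gm5558 and Atg10 (0.998 to 0.989).

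**Figure D4:**
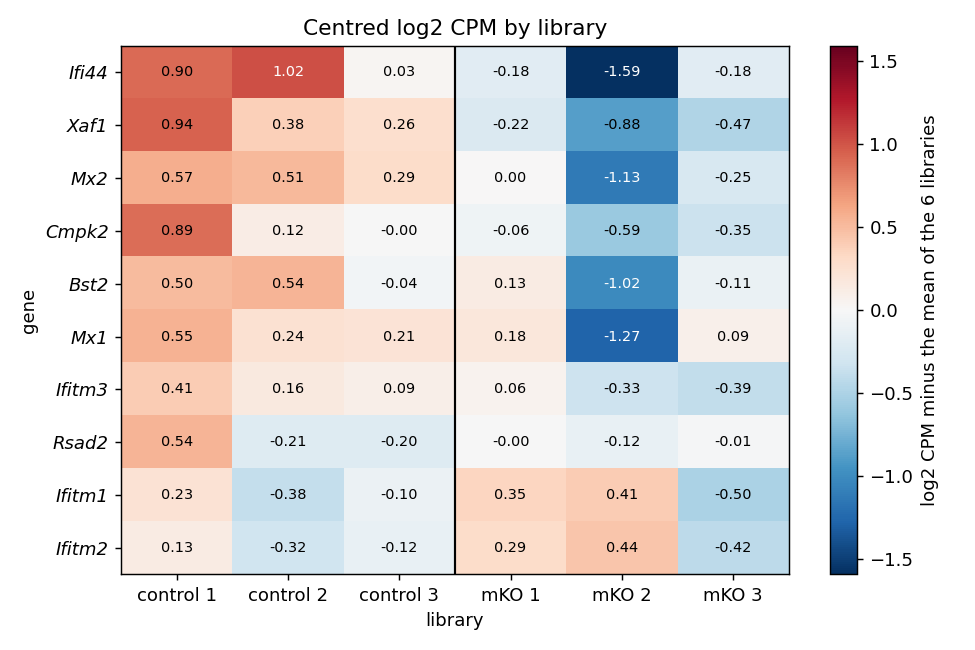
Log2 CPM of each gene (rows) in each library (columns) minus the mean of the 6 libraries, in colour and as printed values. mKO library 2 is the lowest for Ifi44 (-1.59), Mx1 (-1.27), Mx2 (-1.13), Bst2 (-1.02), Xaf1 (-0.88) and Cmpk2 (-0.59), and the highest for Ifitm1 (0.41) and Ifitm2 (0.44).

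Upstream of these genes, none of the 10 interferon genes on the list was analysed here. The 12 genes of the interferon signal chain were split, with a median log2 fold change of -0.02. By edgeR 0 passed the threshold (0% of all tested genes). In 5, mKO lay wholly below control and in 4 wholly above, against 9.39% and 8.76% of all tested genes. The receptor chains and kinases lay on the higher side: Ifnar1 had 74.8, 61.7 and 69.2 CPM in control and 90.9, 85.9 and 84.6 CPM in mKO, Ifnar2 had a log2 fold change of 0.27 (SE 0.14), Jak1 0.22 (SE 0.18) and Tyk2 0.21 (SE 0.09). Irf3, the factor that STING signalling activates, had 0.25 (SE 0.10). Stat2 and Irf9, factors that interferon itself induces, lay on the lower side, at -0.63 (SE 0.22) and -0.39 (SE 0.18). By contrast, Irf1 and Socs1 of the same list were near 0, at -0.01 (SE 0.16) and -0.02 (SE 0.18). Irf7, which amplifies interferon production, had 257, 144 and 120.5 CPM in control and 98.9, 68.2 and 89.3 CPM in mKO. It was the 1 gene of the 12 called by DESeq2 (adjusted p 0.0275), as lower in mKO, against 1.33% of all tested genes. Usp18, which restrains the receptor, had -0.89 (SE 0.31).

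Beside them, 30 other antiviral interferon-stimulated genes had a median log2 fold change of -0.73. Of these, 27 had a value below 0, against 54.1% of all tested genes. In 17 mKO lay wholly below control (9.39% of all tested genes) and in 1, Isg20, wholly above (8.76%). By edgeR 0 passed (0% of all tested genes), and by DESeq2 6 passed as lower (1.33%). The ubiquitin-like modifier Isg15 had -0.72 (SE 0.29), and the RNA-binding Ifit1, Ifit2 and Ifit3 had -1.05 (SE 0.31), -0.73 (SE 0.14) and -1.14 (SE 0.42). The oligoadenylate synthetases Oas1a and Oas2 had -0.94 (SE 0.27) and -0.95 (SE 0.31). The values of Rsad2, Ifitm1 and Ifitm2 lay above those of these 27 genes, and the other 3 of the list were Isg20 (0.41), Zc3hav1 (0.08) and Samhd1 (0.02). Family relatives of the 10 genes, 8 measured of 10 listed, had a median of -0.01, with 4 above and 4 below 0. Among them Cmpk1, the cytosolic counterpart of Cmpk2, had -0.08 (SE 0.10), and the dynamin Dnm2, a relative of the MX proteins, had 0.21 (SE 0.17).

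**Figure D5:**
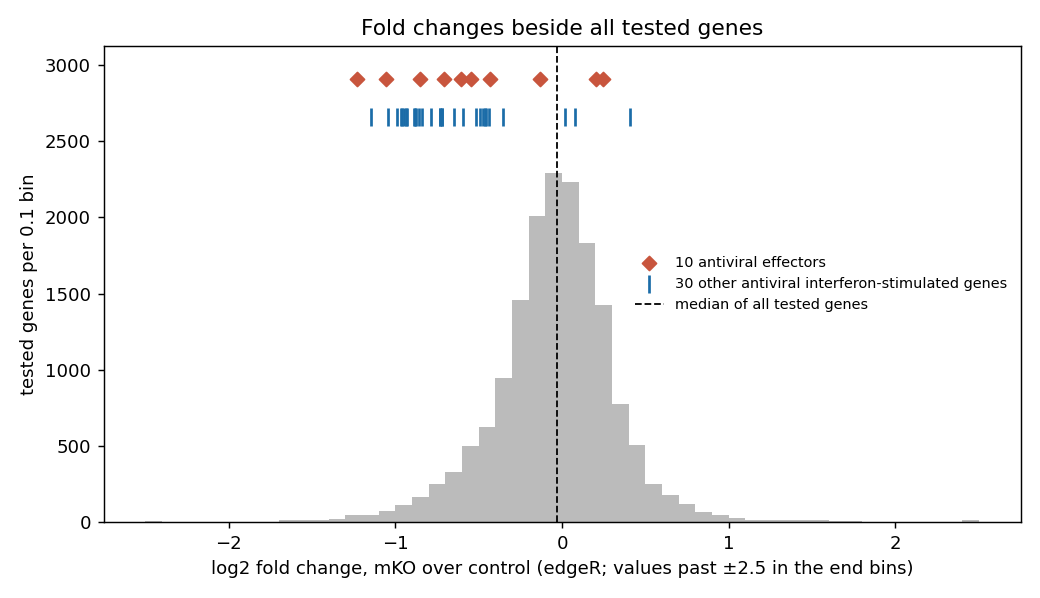
Histogram of log2 fold changes (x axis, mKO over control) of all tested genes, with the 10 antiviral effectors as diamonds and 30 other antiviral interferon-stimulated genes as ticks above it; their height has no meaning. Most of both sets lie left of the dashed median of all tested genes (-0.03), while Ifitm1, Ifitm2 and Rsad2 lie near it.

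Marker sums were compared to describe the cell makeup of the libraries. Among the cell type lists, the sums of endothelial markers (lower in mKO) and of plasmacytoid dendritic cell markers (higher in mKO) did not overlap between groups, and those of all other lists did. Of the 8 plasmacytoid dendritic cell markers measured, only Runx2 had mKO wholly above control (8.76% of all tested genes). Its means were 32.3 CPM in control and 47.9 CPM in mKO. Siglech was level at means of 0.714 and 0.688 CPM, and Ccr9 at 1.08 and 1.09 CPM. The median log2 fold change of the 8 was 0.02. Endothelial markers (8 of 8 measured) summed to 846 to 975 CPM in control and 624 to 762 CPM in mKO, with a median log2 fold change of -0.29. Monocyte and macrophage markers (8 of 8) summed to 1117 to 1437 CPM in control and 1264 to 1922 CPM in mKO, with a median of 0.11. Smooth muscle markers (7 of 7) summed to 1173 to 2976 CPM in control and 646 to 1417 CPM in mKO, with a median of -0.85. Fibroblast markers (6 of 6) summed to 419 to 787 CPM in control and 330.1 to 630.3 CPM in mKO, with a median of -0.27. Among blood cells, all 6 platelet markers had a log2 fold change below 0 (median -0.45), with sums of 3736 to 5535 CPM in control and 2823 to 4222 CPM in mKO. The same held for all 7 T and NK cell markers (median -0.35), whose sums were 13.2 to 27.1 CPM in control and 12.9 to 14.5 CPM in mKO. All 7 erythroid markers had a value above 0 (median 0.26), 3 of them with mKO wholly above control, against 8.76% of all tested genes, and their sums were 200914 to 259028 CPM in control and 238898 to 284887 CPM in mKO. B and plasma cell markers (5 of 5) had a median of -0.06. No marker of any of these lists passed by edgeR, and none was at 0 in all libraries. mKO library 2, the lowest library for 6 of the 10 antiviral genes, had the lowest smooth muscle and fibroblast sums of all libraries. It also had the highest neutrophil (19077 CPM), monocyte and macrophage (1922 CPM) and erythroid (284887 CPM) sums. Its endothelial sum, 741 CPM, was above that of mKO library 1 (624 CPM). The part of cell makeup in the antiviral genes' values was not tested.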

How the data were processed

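RNA was measured in 6 libraries of ligated inferior vena cava with thrombus, 3 control and 3 mKO. The values deposited are raw counts per gene, with 1 table per library and the same 16533 genes in each. The submitters' processing notes name HISAT2 2.1.0 and featureCounts 2.0.1, FastQC 0.11.8 and Trim Galore 0.4.0, and GRCm39 as the build. The notes give them no role or order. Annotation release, strand setting and the rule by which genes were listed were not given in the sources used. Without strand, reads of overlapping genes cannot be assigned with certainty.

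A quasi-likelihood test in edgeR 4.0.16 (R 4.3.3) was run on the deposited counts of all genes, with TMM scaling and robust dispersion. Its default filter kept 16523 genes. Adjusted p-values are Benjamini-Hochberg values over those genes, with a threshold of 0.05. Standard errors and 95% intervals follow from that test. Centred log2 CPM used a prior count of 2. DESeq2 1.42.0, limma 3.58.1 voom, other scalings and filters, a replicate block and leaving out each library were alternatives. The fits were tested on simulated data drawn with edgeR's own dispersion estimates, in which DESeq2 made more false calls than edgeR. That simulation lacks the tissue differences between these pools, so it does not decide between the methods for these data. No 2 libraries agreed within sampling noise. Exact permutation tests ran over the 10 divisions of the libraries into 3 and 3. The members and lists were chosen with earlier results of these data known; Rigi stands in the tables as Ddx58. Named genes are the 10 members, Sting1 and Lyz2, list members mostly in list order, and the genes most like the members' mean, Mx1, Bst2 and Ifitm3. Xiap, Cmpk1, Dnm2, Ifitm6, Irf1, Irf3, Irf7, Irf9, Usp18, Socs1, Isg20, Zc3hav1, Samhd1, Siglech and Runx2 were named for their roles or after their values were seen. Promoters came from RefSeq (GRCm38.p6); exon lengths and transcript words came from GENCODE M21 (GRCm38). No coordinate of the authors' build is given. 1 gene of the signal chain list is not reported by name here.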

Additional observations from a re-analysis of the deposited data

How the results depend on the processing

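Over 16 alternatives, 9 of the 10 genes kept the sign of their log2 fold change; Rsad2 ran from -0.26 to 0.16 on leaving out each library, above 0 without control replicate 1. Xaf1 ranged from -1.21 to -0.82 and passed by DESeq2 only (adjusted p 0.00313, up to 0.526 elsewhere). The count of all genes past the threshold was 0 in edgeR, 461 by DESeq2, 0 by limma voom with or without quality weights, and 0 to 7 on leaving out each library (7 without control replicate 1). It was 6 without control replicate 3 and mKO replicate 3, richest in skeletal muscle markers, an alternative chosen after seeing the data. The number of the 10 genes with mKO wholly below control was 4 with library totals only, beside 10.3% of all tested genes. It was 6 in the other settings with all 6 libraries, beside 8.80% to 9.92%. On leaving out each library it was 6 to 7, beside 11.5% to 19.1%. Without replicate 3 of both groups it was 7, beside 20.6%. Separate groups were thus more common among all genes when fewer libraries were compared. The median log2 fold change of the 10 genes ran from -0.80 to -0.36 on leaving out each library. With the replicate block it was -0.66 and the count of genes past the threshold stayed 0. Same-numbered libraries had correlations of deviations from -0.27 to -0.14, and the labels name no pairing of the pools. Deviations within 3 libraries per group cannot exclude a batch shared by same-numbered pools. The 3 ratios with separate groups kept their direction without each library. The effect of read depth was not tested.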
